A study of Homo sapiens with 16 samples.

Results

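The 520 regions described here are stretches of open chromatin in senescent human fibroblasts that went unlisted both after knockdown of FOXF1/2 and after knockdown of p300/CBP. They were chosen from peak lists. Overlapping peaks on chromosomes 1 to 22 (1 bp or more in common) were joined into regions, separately for the single-end and the paired-end libraries. A region was taken when both single-end control lists and neither p300/CBP knockdown list held a peak there, and when the paired-end region overlapping it most had a peak in all 4 control lists and in neither FOXF1/2 knockdown list. These lists chose the regions, so their values are given as a description with no test. There were 101351 single-end and 149504 paired-end regions in all, and 39659 single-end regions, called the joined set here, were open in every senescent control list of both kinds. Each of the 520 fell in a paired-end region of its own.

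All libraries came from IMR-90 cells, human lung fibroblasts, carrying an ER:Ras fusion. In them 4-hydroxytamoxifen (4-OHT) switches on oncogenic Ras and drives the cells into oncogene-induced senescence. The groups were senescent cells with control siRNA (Sen, siCtrl and 100 nM 4-OHT for 6 days; 4 paired-end and 2 single-end libraries), and the same with siFOXF1/2 (2 paired-end), with sip300/CBP (2 single-end), with sip65 against the RELA subunit of NF-kB (2 single-end) and with siRNA against JUN-family genes (2 paired-end; cJUN/JUND in the titles, cJUN/JUNB/JUND in the treatment label). Proliferating cells (Pro, siCtrl, 2 paired-end) had no 4-OHT in their treatment label, although their cell type label also reads senescent. Every group was therefore a variant of 1 engineered line, and how far each siRNA lowered its target cannot be read from peak lists. No label says that replicates were separate cultures, so the spread between them may be technical.

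FOXF1 and FOXF2 are forkhead transcription factors of mesenchymal cells, best known in the development of lung and gut mesenchyme. Forkhead proteins bind DNA directly, and some of the family can bind sites that are wrapped in nucleosomes. p300 and CBP are paired acetyltransferases that do not read DNA sequence themselves: they are brought in by transcription factors and acetylate histones at enhancers. AP-1, built from JUN and FOS proteins, and NF-kB, with its p65 subunit, are factors known to act at enhancers of senescent fibroblasts, among them those of secreted inflammatory genes. ATAC-seq marks where a transposase can reach DNA, so a peak shows open chromatin and does not show which factor sits there.

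The lists give, for each peak, the authors' fold enrichment and p-value, from which the number of fragments piled up at the summit was worked back. Signal is given below as this pileup divided by the genome-wide background coverage of the same library, in times the background. A peak not listed is one that did not reach the authors' threshold, which at the genome-wide background lay between 4.58 and 6.31 times it in paired-end libraries and between 14.7 and 25.7 times it in single-end libraries. The lists held 58955 to 105828 peaks on these chromosomes in the paired-end and 17707 to 69760 in the single-end set. The shortest list of all was sip65 replicate 2, which also had the lowest background coverage (0.195).

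Within each layout, 6048 of 74746 paired-end regions of all Sen lists had no peak in either siFOXF1/2 list (8.09%), and 7795 of 44774 single-end regions had none in either sip300/CBP list (17.4%). In the joined set, 802 regions had no peak in either siFOXF1/2 list (2.02%) and 6376 had none in either sip300/CBP list (16.1%). The 520 regions that met both conditions were 1.31% of the joined set, 64.8% of the first group and 8.16% of the second. The FOXF1/2 and p300/CBP comparisons have separate Sen libraries. The 520 are set beside 3 other groups of the joined set. In their names, lost means only that neither list of a knockdown had a peak, and held that both had one. The groups are 170 regions lost without FOXF1/2 but held in both sip300/CBP lists, 5342 lost without p300/CBP but held in both siFOXF1/2 lists, and 25994 held in all 4 knockdown lists. The other 7633 regions had a peak in 1 of the 2 lists of a knockdown.

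Just outside the rule stood 626 regions with a peak in exactly 1 of the 4 knockdown lists. Of these, 376 were listed in siFOXF1/2 replicate 2 alone, where their median pileup of 29.0 was 2.64 times the smallest listable pileup of 11, and 138 in siFOXF1/2 replicate 1 alone, with a median of 39.0 against 13. A further 150 met the rule but for 1 missing paired-end Sen peak. The sip300/CBP lists brought in fewer, 89 in replicate 1 (median pileup 11.0 against 5) and 23 in replicate 2 (10.0 against 6). The FOXF1/2 side of the rule was thus set largely by replicate 2: without that library 897 regions met the rule. Without single-end Sen replicate 1 there were 1395, and with every list cut to the shortest of its layout there were 112. Just inside, the weakest listing of any of the 520 in a Sen list was a −log10 q of 4.15, at chromosome 22, 38154629 to 38155163 (hg19), which stood at 23.8, 31.6, 18.0 and 17.1 times the background in the 4 paired-end Sen libraries. Next came the region of chromosome 1 from 185185035 to 185185352, whose weakest −log10 q was 4.25 and whose signal was 12.7, 21.2, 9.81 and 11.7 times the background.

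The rule was also applied to part of the replicates and read in the others, which had no part in the choice beyond the merging of peaks. With Sen replicates 1 and 2 of the paired-end set and replicate 1 of the other groups, 1480 regions were chosen. Of these, 62.0% had no peak in siFOXF1/2 replicate 2, where 4.34% of 45220 background regions had none, and 96.1% had none in sip300/CBP replicate 2, where 35.5% of the background had none. Sen replicates 3 and 4 of the paired-end set listed 90.5% and 90.3% of them, where the background had 98.2% and 98.0%. Single-end Sen replicate 2 listed 70.5%, where the background had 89.4%. All states repeated at 520 regions, 35.1% of those chosen (95% Wilson interval 32.7 to 37.6, counting error only), and at 1.86% of the background. Chosen the other way round, 2971 regions came out. Of these, 75.9% were missing from siFOXF1/2 replicate 1 (background 6.93%) and 80.1% from sip300/CBP replicate 1 (background 29.9%). Paired-end Sen replicates 1 and 2 listed 79.8% and 73.3% of them (background 97.2% and 95.8%). Single-end Sen replicate 1 listed only 40.6% of them (background 71.2%). The chosen regions were missing more often than the background from the unused knockdown lists, and also from every unused Sen list. In single-end Sen replicate 2, for example, 29.5% were missing, against 10.6%. The background was not matched for strength, and the part of strength in these shares was not tested. The shares are therefore a description and no support for the choice. In either split the regions where all states repeated are the 520 themselves, by construction. The weakest link was presence in single-end Sen replicate 1.

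In the paired-end Sen libraries the 520 regions were of middle strength among all listed peaks, and weak beside the held regions. Their median signal was 22, 24.2, 20 and 21.0 times the background in replicates 1 to 4, a mean of 21.8 ± 1.80 (SD, n = 4), and the regions ran from 6.23 to 74.0. The regions lost without FOXF1/2 only had a like mean of the medians, 22.7 ± 2.01 (SD, n = 4). Those lost without p300/CBP only stood at 34.7 ± 3.95 and those held in all knockdown lists at 51.2 ± 2.71 (SD, n = 4). By the authors' fold enrichment, which is relative to the local background, the means of the medians lay closer together, at 10.5 ± 0.316 for the 520, 8.94 ± 0.242 for those lost without FOXF1/2 only, 11.6 ± 0.2 for those lost without p300/CBP only and 13.1 ± 0.574 for those held (SD, n = 4). The 520 then stood above the regions lost without FOXF1/2 only by more than the spread, and their ratio to the held regions was 0.806 in place of 0.426. By rank within each list, the median region of the 520 lay at the 51.1 to 52.8 percentile, against 84.9 to 85.6 for the held regions. In the single-end Sen libraries their medians were 43.4 and 29.5 times the background, or the 30.0 and 44.3 percentile. A typical region of the 520 varied by 17.6% (median coefficient of variation) over the 4 paired-end Sen libraries. The peak names of paired-end Sen replicates 1 and 2 are styled like those of the siFOXF1/2 and Pro libraries, and those of replicates 3 and 4 like those of the JUN-family knockdown, and no label says that the sets were prepared apart. The 520 had medians of 23.1 in the first pair and 20.7 in the second, and 359 of them were higher in the first. So were 17817 of the 25994 held regions and 4334 of the 5342 lost without p300/CBP only, so the shift was not particular to the 520.

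**Figure D1:**
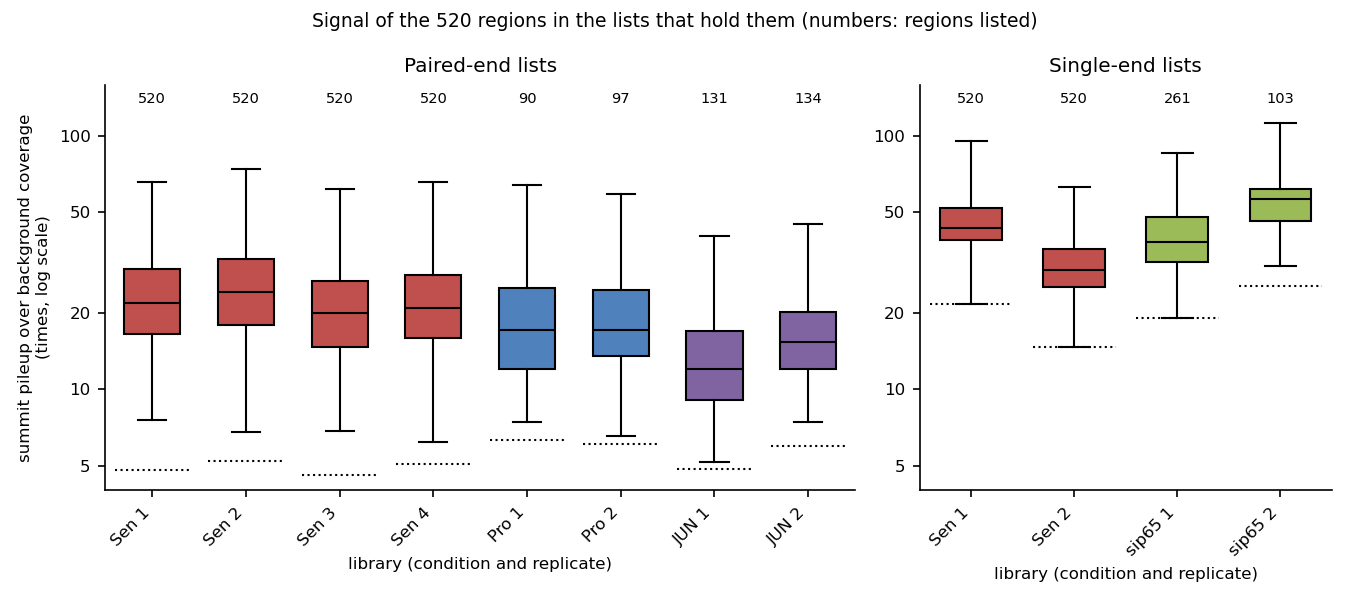
Signal of the 520 regions, as summit pileup over background coverage (times, log scale), in each library that the text reads, left for paired-end and right for single-end lists. Boxes span the quartiles with the median as a line, whiskers reach the lowest and highest region, the number above each box is how many of the 520 are listed there, and the dotted line is the smallest listable value at the genome-wide background; only listed regions have a value, so 90 and 97 regions make up the Pro boxes and all 520 the Sen boxes.

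How large a loss the missing peaks stand for can only be bounded from below. For each region the lowest Sen signal was divided by the smallest signal that a knockdown list would have held, at the local background of that region. The higher of the 2 replicates was taken for this limit. The bound comes from the lists that chose the regions and leaves out counting error, so it is a description. For siFOXF1/2 its median was 2.09, and it was at least 2 at 286 of the 520 (55.0%). For sip300/CBP the median was 1.11, and 1 region (0.192%) had a bound of at least 2. The bound for sip300/CBP was at least 1 at 370 regions (71.2%), and at the others the lowest Sen signal itself could have gone unlisted. The single-end libraries are shallow, and a loss after p300/CBP knockdown was for most of these regions not measurable beyond the step from listed to unlisted. With libraries scaled on the regions that every list of a layout held, the median bounds were 2.5 and 1.18, with 389 regions (74.8%) at 2-fold or more for siFOXF1/2 and 5 (0.962%) for sip300/CBP.

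The strongest of the 520 were named by their lowest within-list percentile over the 6 Sen lists. Chromosome 1 at 189988959 to 189989584 led, with 51.3, 60, 45.5 and 46.0 times the background in the paired-end Sen libraries (50.7 ± 6.75, SD, n = 4) and 78.1 and 56.8 in the single-end ones. Its bounds were 3.81 for FOXF1/2 knockdown and 2.09 for p300/CBP knockdown. No Pro list held it, both JUN-family knockdown lists did (17.5 and 16.9 times the background), and so did both sip65 lists (54.2 and 77.0). This was the region with the 2-fold bound in both knockdowns. The nearest other region open in all paired-end Sen lists was 2100 bp away and was held in both siFOXF1/2 lists.

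Chromosome 5 at 143626678 to 143627173 came next, with 46.2, 51.2, 39.6 and 42.9 times the background in Sen and bounds of 3.81 and 1.70. Its states in the other lists matched those of the first region: absent from Pro, weak in JUN-family knockdown (8.77 and 12.4) and present after p65 knockdown (41.4 and 61.6). It stood alone, 41461 bp from the nearest other region of all paired-end Sen lists. Chromosome 13 at 21586379 to 21586636 had the highest Sen mean of the 12 strongest, with 48.6, 51.2, 56.3 and 55.3 times the background (52.8 ± 3.6, SD, n = 4). Its local background reached 6.68 times the genome-wide one. By the authors' fold enrichment it stood at 6.96, 7.52, 9.66 and 11.3, the lowest of the 12 in each paired-end Sen library. Its replicates disagreed elsewhere, since Pro replicate 1 listed it at 40.8 times the background and replicate 2 did not, and JUN-family knockdown replicate 1 listed it at 23 and replicate 2 did not. A neighbour 2064 bp away was held in both siFOXF1/2 lists.

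The region at chromosome 11, 46765171 to 46765826, stood at 27.9, 35.6, 40.9 and 42.1 times the background in Sen and the one at chromosome 11, 108107174 to 108107676, at 33.4, 38.4, 28.5 and 26.5. The first had no JUN-family knockdown peak, a weak one in Pro replicate 2 (13.1) and strong ones after p65 knockdown (73.3 and 71.8), and the second had none in Pro and 9.74 and 12.9 in the JUN-family knockdown lists. Chromosome 1 at 246968411 to 246968836 (26.5, 37.6, 31.4 and 38.6) had the same states as the 2 leading regions. Chromosome 20 at 1908625 to 1909252 (41.7, 38.4, 42.5 and 49.1) differed from them only in a weak peak in Pro replicate 1 (12.6).

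A further group had neither Pro nor JUN-family knockdown peaks. It held chromosome 7 at 120473682 to 120473968 (24.1, 34, 24.9 and 23.4 times the background in Sen), chromosome 1 at 98840385 to 98841352 (30.0, 30.8, 26.5 and 24.6) and chromosome 9 at 102684038 to 102684643 (23.4, 24.8, 22.2 and 23). All 3 were listed in sip65 replicate 1, at 25.5, 38.3 and 47.8 times the background. Chromosome 2 at 45472067 to 45472509 (32.0, 34, 23.9 and 24.2) had no JUN-family knockdown peak either, and a peak of 15.7 in Pro replicate 2 only. Of the 12 strongest, 7 had no Pro peak, 5 had no JUN-family knockdown peak and none was missing from both sip65 lists, while 8 were in both. Over the joined set the shares missing from both lists were 14.9% for Pro, 15.1% for JUN-family knockdown and 24.0% for sip65. By the same ranking, 182 of the stronger 260 and 214 of the weaker 260 had no Pro peak. The numbers were 173 and 182 for JUN-family knockdown and 93 and 152 for sip65. Bounds over the 12 ran from 2.83 to 3.81 for FOXF1/2 and from 1.22 to 2.09 for p300/CBP.

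**Figure D2:**
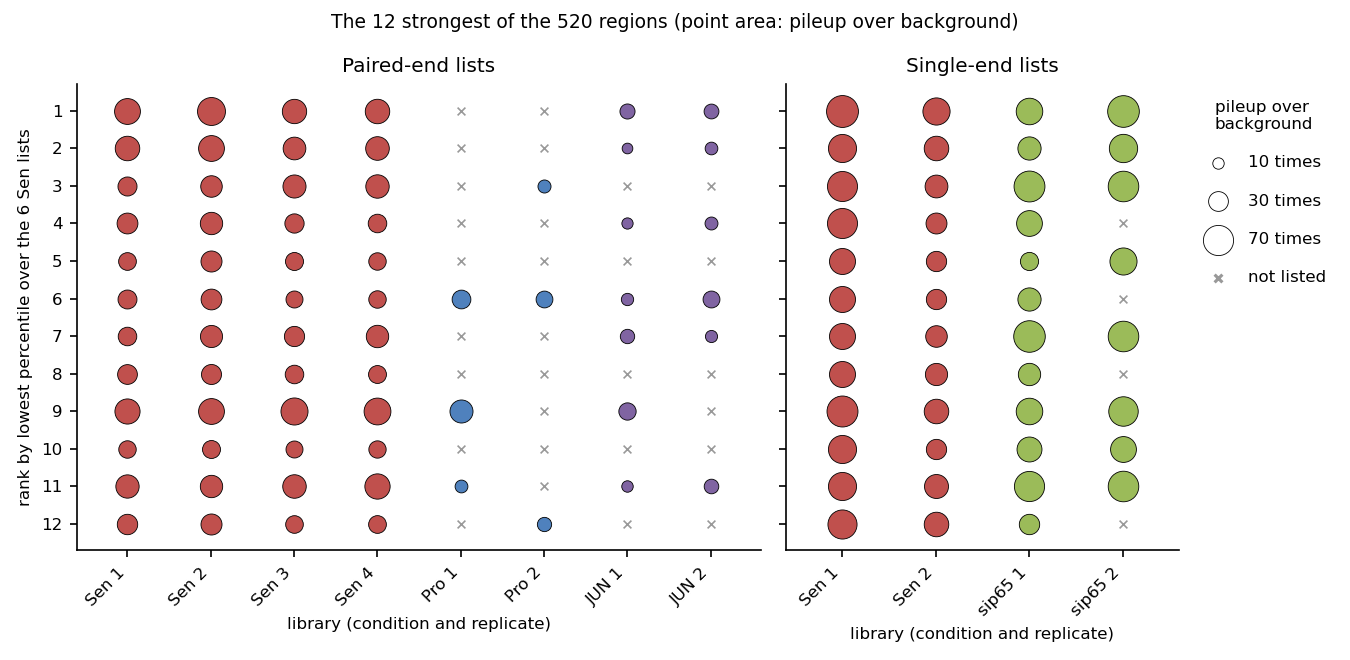
The 12 strongest of the 520 regions (rows, ranked by their lowest percentile over the 6 Sen lists) in 12 libraries (columns, paired-end left and single-end right); the area of a point is the summit pileup over background coverage and a cross marks a region that the list does not hold. All 12 are listed in sip65 replicate 1, and 1 of the 12, rank 6, is listed in both Pro libraries.

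The Pro lists took no part in the choice beyond the merging of peaks, although the comparison with Sen shares the Sen libraries with it. They held few of the 520: 90 in replicate 1 (17.3%) and 97 in replicate 2 (18.7%). No Pro peak was listed at 396 of the 520 (76.2%, 95% Wilson interval 72.3 to 79.6, counting error over regions only, and 67.8% to 82.7% with 1 library left out), where the share over the joined set was 14.9%. A further 61 had a peak in 1 Pro list (11.7%, joined set 5.75%) and 63 in both (12.1%, joined set 79.4%). Most of these regions were thus open in senescent and unlisted in proliferating cells. The mean share listed was 18.0 ± 0.952% for the 520 and 15.3% in both Pro libraries for the regions lost without FOXF1/2 only, against 71.9 ± 0.582% for those lost without p300/CBP only and 89.0 ± 0.645% for those held (SD, n = 2 Pro libraries). The gap to the last 2 groups was many times the spread between the Pro libraries, whereas the regions lost without FOXF1/2 only lay close to the 520.

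Absence from Pro was better bounded than the loss after p300/CBP knockdown. The median bound on the Sen to Pro fold over the 396 regions was 1.88, and 168 of them (42.4%) had a bound of at least 2. At the 63 regions in both Pro lists the median signal was 19.5 times the background in Pro and 23.5 in Sen, a median difference of −0.20 on the log2 scale, and 39 of the 63 were lower in Pro. Regions lost without p300/CBP only and listed in both Pro lists gave −0.18, with 2159 of 3613 lower, and held regions 0.26, with 7881 of 22083 lower. Against Sen replicates 1 and 2 alone, whose peak names are styled alike, the difference was −0.28, and with the regions chosen on those 2 Sen libraries 79.4% had no Pro peak. The strongest of these 63 was chromosome 14 at 64501923 to 64502508, with 27.0 and 21.7 times the background in Pro and 27.6, 33.2, 22.2 and 23.4 in Sen, ranges that overlapped. Chromosome 6 at 148920872 to 148921471 had 33.3 and 38.4 in Pro against 32.4, 28.8, 28.8 and 36.6 in Sen, again overlapping. Chromosome 10 at 5955531 to 5956149 was lower in both Pro libraries (11.5 and 21.2) than in any Sen library (27.2, 27.6, 31.7 and 36.2). All 3 were also in both JUN-family knockdown lists.

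The JUN-family knockdown, too, shares its Sen libraries with the choice. Its lists held 131 of the 520 in replicate 1 (25.2%) and 134 in replicate 2 (25.8%). At 355 regions (68.3%, 95% Wilson interval 64.1 to 72.1, counting error over regions only, and 62.0% to 74.8% with 1 library left out) neither list had a peak, where the share over the joined set was 15.1%. Both lists had one at 100 regions (19.2%, joined set 77.8%), and 1 list at 65 (12.5%, joined set 7.07%). The mean share listed was 25.5 ± 0.408% for the 520, 37.1 ± 3.33% for the regions lost without FOXF1/2 only, 67.7 ± 1.38% for those lost without p300/CBP only and 88.6 ± 0.147% for those held (SD, n = 2 libraries). The 520 were listed less in these libraries than any of the other groups, by more than the spread between the replicates. Between Pro and JUN-family knockdown the share of the 520 listed, 18.0% against 25.5%, gave p = 0.333 in a two-sided exact permutation test, the smallest that 2 libraries against 2 can give.

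Signal was lower throughout the JUN-family knockdown libraries, and its part in these counts was not tested. At 37197 regions listed in all 10 paired-end libraries the median signal was 22.1 and 26.9 times the background after JUN-family knockdown and 42.1 to 47.6 in Sen. The median bound over the 355 regions was 1.96, with 170 (47.9%) at 2-fold or more. Scaled on the regions in every list, it was 1.19, with 15 (4.23%) at 2-fold or more. At the 100 regions in both lists the median signal was 14.8 after knockdown and 25.8 in Sen, a median difference of −0.72 on the log2 scale, beside −0.78 at the regions held in all FOXF1/2 and p300/CBP knockdown lists and −1.03 at those lost without p300/CBP only. Against Sen replicates 3 and 4 alone, whose peak names are styled alike, the differences were −0.84, −0.73 and −0.92. Regions that went unlisted have no value, so these differences cover the 100 listed regions and not the 520. With the regions chosen on those 2 Sen libraries, 66.5% had no peak after JUN-family knockdown.

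Knockdown of p65, read against the single-end Sen libraries used in the choice, gave less clear values. Replicate 1 listed 261 of the 520 (50.2%) and replicate 2, the shortest list, 103 (19.8%). Neither listed 245 (47.1%, 95% Wilson interval 42.9 to 51.4, counting error over regions only), where the share over the joined set was 24.0%, and without replicate 1 the share unlisted was 80.2%. Both listed 89 (17.1%, joined set 37.0%) and 1 of them 186 (35.8%, joined set 39.1%). The regions lost without FOXF1/2 only had 49.4% in neither list, those lost without p300/CBP only 41.1% and those held 15.3%. The mean share listed, 35.0 ± 21.5% for the 520 against 33.2 ± 22.9% for those lost without FOXF1/2 only, 39.8 ± 23.7% for those lost without p300/CBP only and 65.6 ± 25.3% for those held (SD, n = 2), differed between groups by less or little more than the spread between the libraries. Within each sip65 library the 520, the regions lost without p300/CBP only and the held regions kept this order, with 50.2%, 56.6% and 83.5% listed in replicate 1 and 19.8%, 23% and 47.7% in replicate 2. The median bound over the 245 missing regions was 0.861, with 48 (19.6%) at 1 or more and none at 1.5. Scaled on the regions in every list it was 0.963, with 108 (44.1%) at 1 or more and 3 (1.22%) at 1.5. A loss of signal after p65 knockdown was not detectable at this depth for most of them. The 89 regions in both sip65 lists had a median of 51.5 times the background there and 41.7 in Sen. They had to pass the high listing limits of the sip65 libraries to have a value, so this is no measure of a change.

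**Figure D3:**
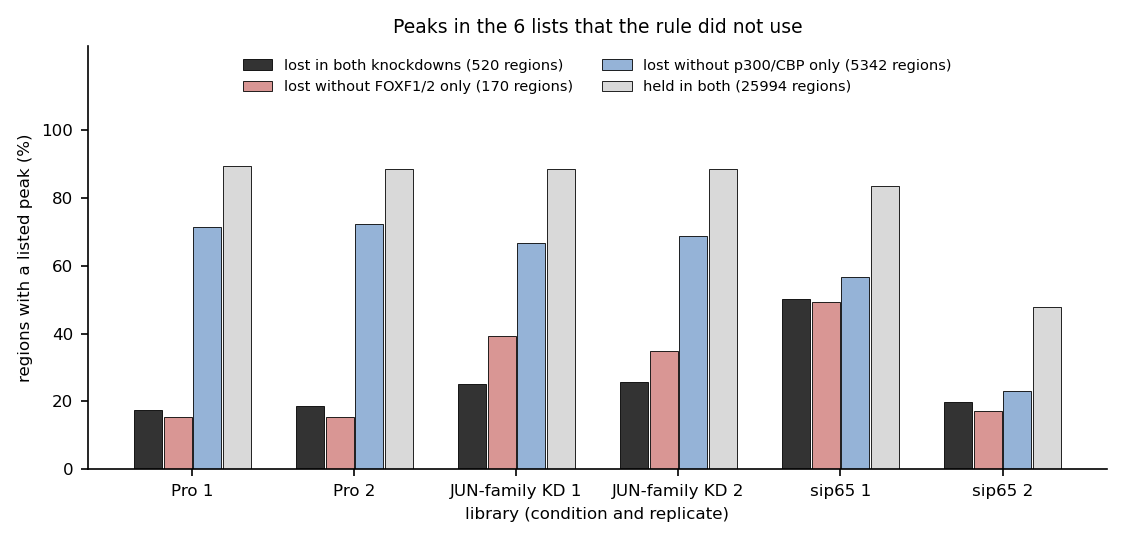
Share of regions with a listed peak (%) in each of 6 libraries, for the 520 regions and 3 other groups of the joined set. These libraries took no part in the choice beyond the merging of peaks. Each bar is 1 library, with no error bar. The 520 regions sit between 17.3% and 25.8% in the Pro and JUN-family knockdown libraries, where the held regions sit between 88.5% and 89.5%.

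Weak peaks go unlisted more easily, so the groups were also read within 10 bins of the lowest −log10 q over the Sen lists. The 520 lay mostly in the weak bins of the paired-end set, with 223 (42.9%) in bin 1 and 141 (27.1%) in bin 2. In bin 1, 83.4% of the 520 had no Pro peak, against 53.3% of those lost without p300/CBP only and 44.4% of those held. In bin 4 the shares were 68.6% of 51 regions, 19.6% and 12.6%. When the other groups were weighted to the bins of the 520, the share with no Pro peak was 38.3% for regions lost without p300/CBP only and 31.1% for held regions, beside 76.2%. For JUN-family knockdown the weighted shares were 43.6% and 33.7%, beside 68.3%. For sip65, over bins of single-end strength, they were 42.4% and 27.3%, beside 47.1%. The regions lost without FOXF1/2 only, weighted alike, had 81.8% for Pro, 55.8% for JUN-family knockdown and 54.8% for sip65, with fewer than 20 regions in 5 or 6 of the bins. For Pro the absence was therefore at least as frequent in that group as in the 520, and it is not particular to them. For sip65 the 520 lay between the groups lost in 1 knockdown only. Fewer than 20 of the 520 stood in 3 of the paired-end bins and 2 of the single-end bins that they filled.

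**Figure D4:**
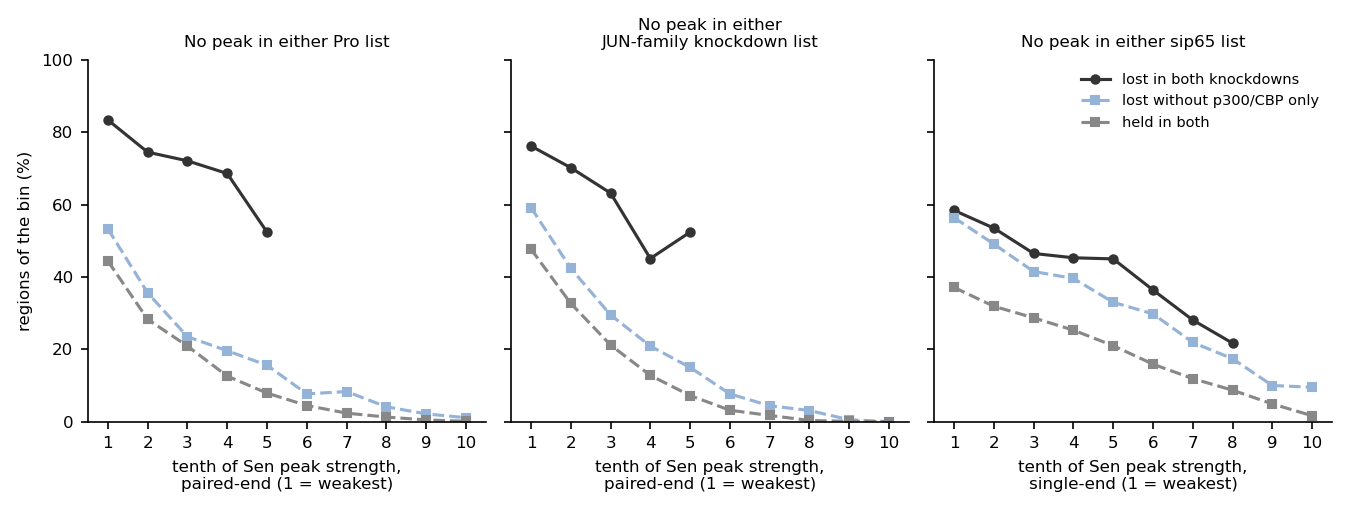
Share of regions (%) with no peak in either Pro list (left), either JUN-family knockdown list (middle) or either sip65 list (right), by bin of Sen peak strength from 1, the weakest, to 10; circles are the 520 regions, squares the regions lost without p300/CBP only (blue) and those held (grey), and bins with fewer than 20 regions of a group are left out. In the left panel the 520 regions fall from 83.4% in bin 1 to 52.4% in bin 5 and lie above both other groups in each of these bins.

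The 520 regions were short. Their median length was 182 bp in the single-end and 424 bp in the paired-end set, where it was 719 bp for the regions lost without p300/CBP only and 821.5 bp for those held. A merged paired-end region grows with the number of lists that hold it, so the length of the Sen peaks alone is the fairer measure: 316 bp for the 520, 273.8 bp for those lost without FOXF1/2 only, 541.8 bp for those lost without p300/CBP only and 639 bp for those held. Single-end and paired-end Sen summits lay a median of 20.5 bp apart, and at most 347.2 bp. The join asks for overlap, which keeps such distances small. The medians were 17.75 bp for regions lost without FOXF1/2 only, 29 bp for those lost without p300/CBP only and 24 bp for those held. Every one of the 22 chromosomes held some of the 520. Chromosome 13 held 23, 2.28% of its joined regions, chromosome 21 held 11 (2.1%) and chromosome 19 held 9 (0.615%), around 1.31% over all.

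The nearest other region of the 520 lay a median of 1576000 bp away, and 3 pairs stood within 50 kb. Both values depend on how many regions are counted. They were not set beside a like number of joined regions, so they are a description with no background. On chromosome 3 the regions at 29668970 to 29669716 and 29677447 to 29677959 had Sen means of 25.3 ± 2.16 and 26.2 ± 6.79 (SD over 4 libraries, in times the background) and were both in all Pro and JUN-family knockdown lists, at 8.04 and 11.1 and at 17.2 and 21.7 times the background in Pro. The pair on chromosome 6, 143545160 to 143545985 and 143582057 to 143582326, at 21.8 ± 1.85 and 16.1 ± 2.22 in Sen, and the pair on chromosome 13, 23728100 to 23728477 and 23748267 to 23748590, at 14.6 ± 1.44 and 10.7 ± 1.11 (SD, n = 4), were in none of them. No other region of the joined set lay inside the span of any of the 3 pairs.

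Most neighbours of the 520 were listed after knockdown. The nearest other region open in all paired-end Sen lists lay a median of 7666 bp away. It was in both siFOXF1/2 lists for 422 of the 520 (81.2%) and in neither for 62 (11.9%). Over all 74746 regions of the 4 paired-end Sen lists, the nearest neighbour was in both siFOXF1/2 lists in 84.9% of cases and in neither in 8.42%. On the single-end side the nearest neighbour was in both sip300/CBP lists for 319 (61.3%) and in neither for 103 (19.8%), against 63.8% and 17.9% over 44774 regions. The shares for neighbours of the 520 lay near those of the background in both knockdowns.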

How the data were processed

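ATAC-seq libraries were sequenced as 75 bp single reads or 35 bp pairs, per the labels' protocols. Build hg19, MACS2 2.1.1, Bowtie2 2.3.4.1, deepTools 3.1.1 and SAMtools 1.9 stand in the submitters' processing notes, without roles. How reads were shifted and peaks called is not given in the sources used here. Names in the single-end lists carry a duplicate-removal tag. The deposited lists, 1 per library, give per peak a fold enrichment ratio, the −log10 of p and q, a score that follows −log10 q (not used) and the summit position. The lowest deposited −log10 q was 4.00 to 4.10.

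Pileup and local background were solved from fold = (pileup + 1) / (background + 1) and the Poisson p, within 0.002 in −log10 p (wider in proportion above 10). A whole pileup was found for 99.33% to 100% of peaks, and the solution with the larger background was taken where there were 2. Background coverage is the 1st percentile of local backgrounds. Bounds use the highest local background in Sen. No read counts are given, so no count model was run, and groups of 2 libraries cannot reach p under 0.05 in an exact permutation test (smallest 0.333). Where a library is missing a peak there is no value, so no fit across regions was made.

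The regions and groups were chosen with earlier results of these data known. Named regions are the 12 highest by lowest within-list percentile over the Sen lists, the 3 highest in both lists of Pro, JUN-family knockdown and sip65, groups within 50 kb, and the 2 nearest the listing limit. Sequence and gene annotation of hg19 were not used here, so no bases or genes are named. Scripts were tested on simulated lists. Python 3.11.15, numpy 2.4.6, pandas 2.3.3 and scipy 1.17.1 were used.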

Additional observations from a re-analysis of the deposited data

Results flagged for a closer look

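Among the 4 paired-end Sen libraries, 1 of 17 items tested had a library far from the others: at chromosome 7, 120473682 to 120473968, replicate 2 stood at 34 times the background and the others at 23.4, 24.1 and 24.9. Chance sets about 1 group in 20 apart in this way. Over all 520 regions, 44 (8.46%) had such a library. The part of library differences in this was not tested.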

How the results depend on the processing

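The number of regions stayed within 1.5 times of 520 under a −log10 q of at least 5 (518), peaks covering at least 50% of a region (560, added after seeing the data), chromosome X (524), and Sen replicates 1 and 2 (616) or 3 and 4 (684) of the paired-end set alone. Of the 560 regions under the 50% cover only 318 were among the 520, so a like number hid a large change of members. The planned wording of the 50% alternative could change nothing, since a peak lies inside its merged region. A join over at least 50% of the single-end region changed none of the 4 results. With every list cut to the shortest of its layout 112 regions met the rule, 14 of them with the same start and end as a region of the 520, with 67.0% in neither Pro list, 50.0% in neither JUN-family knockdown list and 36.6% in neither sip65 list; the cause was not tested. The 50% cover gave 80.7% for Pro and 78.9% for JUN-family knockdown, and Sen replicates 1 and 2 alone gave 72.6% for JUN-family knockdown and 53.6% for sip65. Leaving out 1 library gave 520 to 1395 regions, 67.8% to 82.7% in neither Pro list, 62.0% to 74.8% in neither JUN-family knockdown list and 43.8% to 80.2% in neither sip65 list. Without single-end Sen replicate 1 there were 1395 regions and without siFOXF1/2 replicate 2 there were 897, and the 80.2% for sip65 came without its replicate 1. The 368 regions with a bound of at least 1 in both knockdowns gave 75.0%, 69.0% and 43.5%. The share of states repeated in unused replicates was 35.1% or, chosen the other way round, 17.5%. Relative to held regions, the Sen signal of the 520 was 0.426 ± 0.0141 by pileup and 0.806 by the authors' fold (SD, n = 4). No paired analysis was possible because the results come from no test across regions and no label ties replicate numbers to a shared culture. The high listing limit of the single-end libraries bounds what the p300/CBP and p65 lists can show.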
